A study of Homo sapiens with 6 samples.

Results

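The 200 ZNF genes with the highest expression in control cells were followed through depletion of CPT2, the mitochondrial carnitine palmitoyltransferase that releases long-chain acyl groups to coenzyme A for beta-oxidation. The table of 24154 genes held 475 symbols made of ZNF and digits only. Of these, 10 were left out by name, and the 200 with the highest mean FPKM (the authors' level per transcript length and library size) over the 3 control libraries were taken from the remaining 465. The other 265 held 56 genes with no count in any library. Because the control FPKM chose the members, their control levels are given as a description. A choice by the FPKM of the knockdown libraries shared 186 of the 200 genes, and a choice by all 6 libraries shared 191.

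The libraries came from HCT116, an established human colorectal cancer line, in 2 groups. The CPT2 knockdown group held 3 libraries of growing cells given an siRNA against CPT2, and the NC group held 3 libraries of cells given a negative control siRNA, both for 48 h. The siRNA sequences were not used here, and no second siRNA was among these samples. The labels number the libraries of each group from 1 to 3 and do not say whether these were separate cultures, and the p-values therefore cover the spread between these libraries alone, which may be a technical one.

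C2H2 zinc finger proteins carry tandem fingers, each a short fold held by a zinc ion between a pair of cysteines and a pair of histidines, and neighbouring fingers read successive DNA bases. Many of the ZNF genes also encode a KRAB domain, which recruits TRIM28 (KAP1), the histone methyltransferase SETDB1 and heterochromatin proteins to silence transposable elements and other targets. The human KRAB genes grew by duplication, with large clusters on chromosome 19. Other ZNF proteins act as transcriptional activators, bind RNA or work on the ribosome.

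The finger-coding sequences differ between members in base composition, a property along which their fold changes were ordered. For 2 members with higher knockdown values and 2 with lower ones, the 81 bases that encode 1 finger and its linker to the next are shown. They come from GENCODE 29 on GRCh38. The codons of the cysteine pair and the histidine pair that hold the zinc ion are in capitals, and other histidine codons are in lower case. They lie in coding exons, at chr19:55614672-55614752 on the plus strand (ZNF865), chr19:56088806-56088886 on the minus strand (ZNF787), chr19:21183003-21183083 on the plus strand (ZNF431) and chr4:443720-443800 on the minus strand (ZNF721).
ZNF865: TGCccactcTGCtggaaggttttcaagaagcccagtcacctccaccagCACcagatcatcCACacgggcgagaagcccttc
ZNF787: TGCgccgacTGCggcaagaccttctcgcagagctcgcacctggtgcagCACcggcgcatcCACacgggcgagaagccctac
ZNF431: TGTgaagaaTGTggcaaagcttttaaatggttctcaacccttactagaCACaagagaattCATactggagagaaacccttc
ZNF721: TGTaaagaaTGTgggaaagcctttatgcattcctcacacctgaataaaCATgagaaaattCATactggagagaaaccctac
The search for these fingers fixed the spacing of the cysteine and histidine codons, so all 4 share it by construction. The 4 genes were taken for the highest and lowest transcript GC content among genes named by fold change with such a finger. A GC contrast between their fingers was therefore favoured by the choice. The GC content of the finger was 58.0% in ZNF865 and 67.9% in ZNF787, against 39.5% in ZNF431 and 38.3% in ZNF721. Over the 195 members in which a canonical finger was found, the GC content of the finger-coding bases ranged from 29 to 73.6%, and its Spearman correlation with the GC content of the longest transcript was 0.89 across genes, which are not independent replicates.

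A KRAB A box was found in the coding sequence of 104 members and not found in 96. Members without the box include proteins that bind RNA or carry a BTB or SCAN domain. The members lay on 21 chromosomes, with 67 on chromosome 19 (47 of these with a KRAB A box), 22 on chromosome 16 and 17 on chromosome 7. The number of canonical fingers ranged from 0 to 31, with a median of 11 in KRAB members and 6.5 in the others. The longest transcripts had a median GC content of 46.2%, against 48.9% over all tested genes, and members with a KRAB A box were poorer in GC (44.3%) than members without (52.2%).

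The ZNF genes were a small share of the reads. The 200 members together took 126495, 143062 and 143313 counts in the knockdown libraries and 149450, 161464 and 156129 counts in the NC libraries. As a share of all gene counts this was 0.438, 0.505 and 0.489% in the knockdown libraries, against 0.511, 0.554 and 0.530% in the NC libraries. The knockdown shares were all below the NC shares, and the gap between the groups was narrowest between knockdown library 2 and NC library 1. The members were chosen by their NC level, which by itself favours higher NC shares. The shares also rest on unscaled library totals. With scaling by library size alone, the median log2 ratio of knockdown to NC was -0.13 over all tested genes and -0.23 over the members. The lower shares are therefore given as a description. In bulk RNA, fewer cells of a type and less RNA per cell cannot be told apart.

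Total gene counts per library were even, from 28353790 to 29449380, so depth varied little. CPT2 itself had 19.4, 21.3 and 19 CPM (counts scaled to the same library total by trimmed-mean-scaled library sizes) in the knockdown libraries and 23.6, 28.6 and 29.1 CPM in the NC libraries, which did not overlap, with a log2 fold change of -0.44 (SE 0.17) and an adjusted p of 0.338 by edgeR. With offsets for transcript GC content and length, the CPT2 log2 fold change was 0.02. Knockdown library 1 stood apart on the first principal component of all tested genes (53.2% of the variance), at -76.6 against -16.0 to 44.6 for the other libraries. Of the epithelial markers, KRT8 (503 to 667 FPKM) and KRT18 (392 to 651 FPKM) were high, while EPCAM (1.60 to 2.36 FPKM), CDH1 (0.173 to 0.591 FPKM) and KRT19 (0.139 to 0.903 FPKM) were low, which goes against the label of an epithelial line. Immune and endothelial markers were at most 0.121 FPKM, COL3A1 was at most 0.0117 FPKM and COL1A1 had 10.9 to 17.1 FPKM. The part of the cells' identity in the results below was not tested.

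In NC cells the mean level of the members ranged from 2.31 to 52.3 FPKM with a median of 4.89 FPKM, and the same genes had a median of 4.54 FPKM in knockdown cells. Only 39 members were above 10 FPKM in NC cells. The last genes inside the limit were ZNF510, ZNF92 and ZNF618 at 2.322, 2.319 and 2.309 FPKM, and the first outside were ZNF778, ZNF654 and ZNF34 at 2.305, 2.299 and 2.279 FPKM.

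The highest level belonged to ZNF622, whose yeast relative works in the late maturation of the large ribosomal subunit. It had 50.5, 52.0 and 62.3 FPKM in the knockdown libraries and 55.8, 47.0 and 54.2 FPKM in the NC libraries, which overlapped. ZNF131, a BTB zinc finger protein, had 13.4, 39.6 and 27.8 FPKM in the knockdown libraries and 32.4, 48.5 and 35.7 FPKM in the NC libraries. Its groups overlapped too, and its lowest value was in knockdown library 1. ZNF638, an RNA-binding protein of the nucleus, had 27.8, 26.8 and 29.5 FPKM in the knockdown libraries and 35.5, 27.6 and 25.3 FPKM in the NC libraries. The next members in order were ZNF146, a protein made almost wholly of fingers, ZNF692, ZNF207 (BuGZ, which binds the checkpoint protein BUB3), ZNF384, ZNF580, ZNF664 and ZNF598, the ubiquitin ligase of collided ribosomes. None of these 10 had a KRAB A box, and their knockdown and NC values overlapped in 9 of the 10. ZNF580 was the exception, with 67.5, 34.3 and 39.6 FPKM in the knockdown libraries and 26.2, 21.4 and 28.4 FPKM in the NC libraries.

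**Figure D1:**
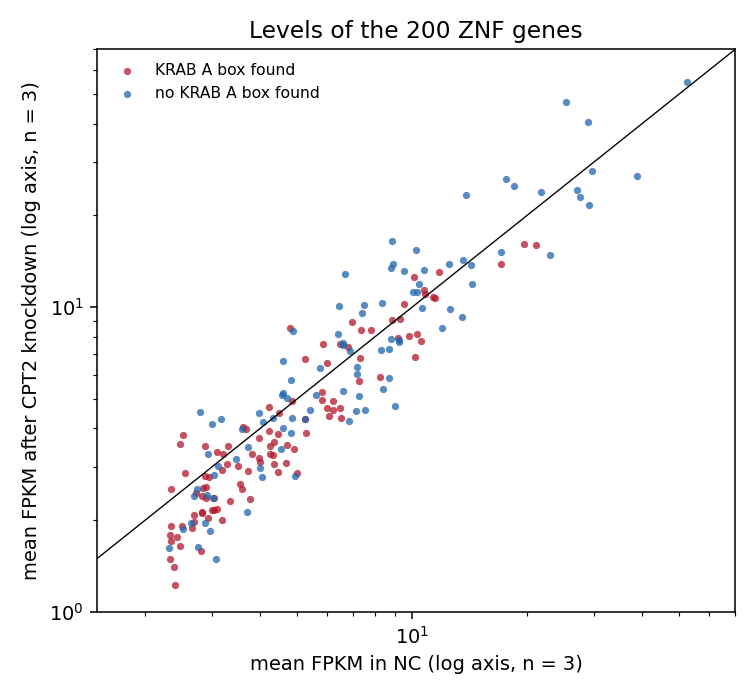
Mean FPKM of each of the 200 ZNF genes after CPT2 knockdown (vertical, n = 3) against NC (horizontal, n = 3), on log axes, coloured by whether a KRAB A box was found; the line marks equal levels. The points follow the line over the whole range of 2.31 to 52.3 FPKM in NC, and KRAB members lie along its whole length except at the top.

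In the edgeR fit by group alone, no member was called between knockdown and NC cells after adjustment over all 15302 tested genes. All 200 members passed the filter on low counts, and none had an adjusted p under 0.05 in edgeR's quasi-likelihood test with Benjamini-Hochberg adjustment (the smallest was 0.338), with 0.0131% of all tested genes called. The median SE of a member's log2 fold change was 0.21. At an unadjusted p under 0.05, 26 members (13%) were higher in the knockdown and 10 (5%) were lower, against 9.18% and 5.29% of all tested genes. Scaling by library size alone, which moved the median log2 fold change of all tested genes to -0.13, gave 14 higher and 18 lower members, against 3.8% and 9.4% of all tested genes. The 3 knockdown values lay above all 3 NC values in 32 members (16%) and below them in 28 (14%), against 12.2% of all tested genes in each direction. DESeq2 called 1 member, ZNF358, with an adjusted p of 0.041, where it called 0.111% of all tested genes. With the replicate number as a block, edgeR called 14 members, against 4.14% of all tested genes. The lower ones were ZNF292, ZNF721, ZNF367, ZNF714, ZNF281, ZNF217 and ZNF106. The higher ones were ZNF768, ZNF865, ZNF579, ZNF205, ZNF580, ZNF358 and ZNF414. Their adjusted p in that fit lay between 0.0479 and 0.0497.

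These counts moved with single libraries, and so did the shares over all tested genes. Without knockdown library 1 there were 16 higher and 13 lower members, against 5.09% and 4.96% of all tested genes. Without knockdown library 2 there were 39 and 47, against 18.0% and 17.9%. Without knockdown library 3 there were 18 and 5, against 6.26% and 2.93%. Leaving out NC library 1 gave 14 higher and 8 lower members, against 5.18% and 3.28% of all tested genes. Leaving out NC library 2 gave 8 and 3, against 2.41% and 0.821%, and leaving out NC library 3 gave 18 and 5, against 5.32% and 2.51%.

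The members had a median log2 fold change of -0.10, against 0.01 over all tested genes. It was positive in 87 members (43.5%) and negative in 113 (56.5%), against 50.7% and 49.3% of all tested genes. Since the members were taken by their NC level, the median also moved with that choice, to -0.02 for the 200 genes chosen by knockdown FPKM and -0.05 for those chosen by all 6 libraries. Relative to the NC mean, the members' median stood at -0.17, 0.04 and -0.07 (log2) in the knockdown libraries and at -0.02, 0.04 and -0.02 in the NC libraries. Knockdown libraries 1 and 3 lay below all NC libraries, with knockdown library 1 the lowest of the 6. Knockdown library 2 (0.044) was nearly level with the highest NC library, library 2 (0.038). Knockdown library 1 gave the lowest of the 6 values in 88 members (44%) and the highest in 63 (31.5%), against 37.7% and 34.6% of all tested genes.

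**Figure D2:**
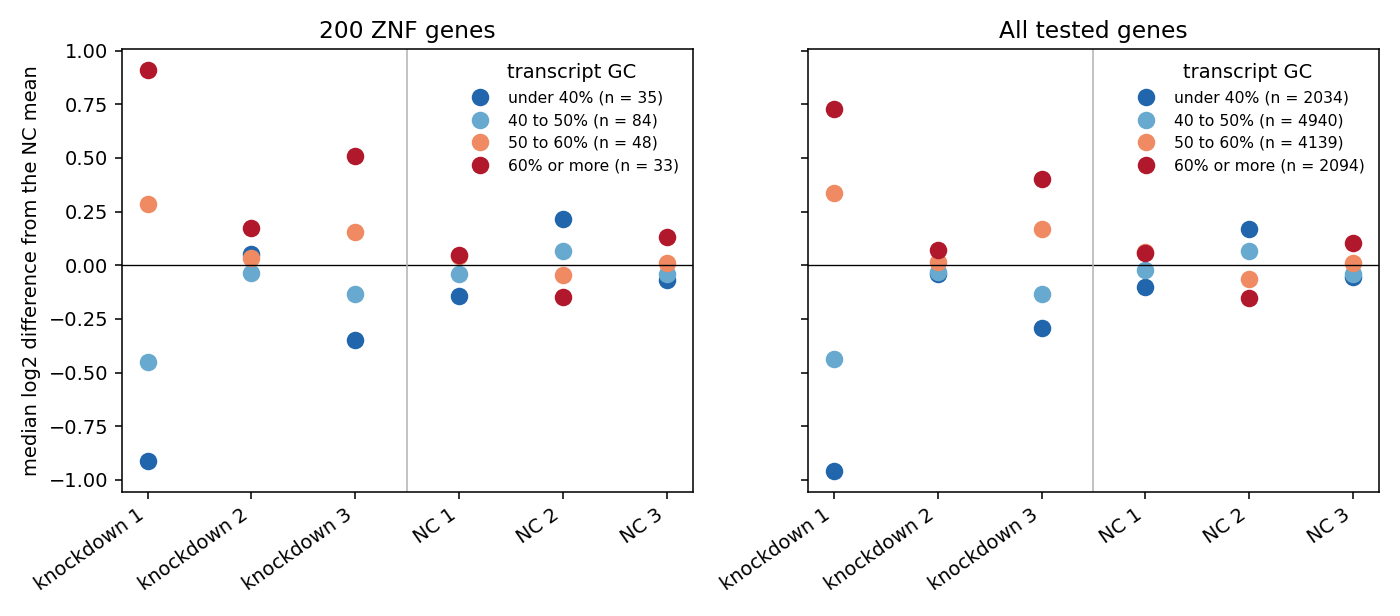
Median over genes of log2 CPM minus the gene's NC mean in each library (vertical), in 4 classes of transcript GC content, for the 200 ZNF genes (left panel) and all tested genes (right panel), with the 3 CPT2 knockdown libraries left of the 3 NC libraries in each. Knockdown library 1 holds the outermost medians of the members, -0.91 in members under 40% GC and 0.91 in members of 60% GC or more.

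Base composition ordered the members. The 33 members of 60% GC or more had a median log2 fold change of 0.57. Of these, 32 were positive, against 1951 of the 2094 tested genes of that GC content. At an unadjusted p under 0.05, 18 (54.5%) were higher and none lower, where 29.9% and 0.191% of the tested genes of that GC content were. The 35 members under 40% GC had a median of -0.36, with 5 (14.3%) lower and none higher, where 11.6% and 0.295% of the 2034 tested genes of that class were. The medians between them were -0.19 for the 84 members of 40 to 50% GC and 0.16 for the 48 members of 50 to 60% GC. Over all tested genes the 4 medians were -0.40, -0.19, 0.18 and 0.43 from the lowest GC class to the highest. The members and all tested genes thus stood in the same order of GC classes. The Spearman correlation between GC content and log2 fold change was 0.73 over the 200 members and 0.68 over the 13207 tested genes with a known transcript, a description across genes that share their libraries. Between transcript length and log2 fold change it was -0.45 over the members. The trends with GC content and with length were not separated.

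The trend was carried unequally by the libraries. The 35 members under 40% GC had medians of -0.91, 0.05 and -0.35 (log2 against the NC mean) in the knockdown libraries and -0.14, 0.21 and -0.07 in the NC libraries. The 33 members of 60% GC or more had medians of 0.91, 0.18 and 0.51 in the knockdown libraries and 0.05, -0.15 and 0.13 in the NC libraries. Knockdown libraries 1 and 3 stood outside the NC libraries in both classes, while knockdown library 2 lay within them in the low class and just above them in the high class. Among the NC libraries, library 2 leaned the opposite way to knockdown library 1. Without knockdown library 1 the correlation with GC content over the members was 0.57, and the medians of the lowest and highest classes were -0.17 and 0.39. The correlation with transcript length was then -0.50.

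With per-library offsets for transcript GC content and length in the edgeR fit, the correlation with GC content was 0.01 and with length -0.007. The members' median log2 fold change was 0.03. The medians of the 4 GC classes were then 0.05, 0.04, 0.01 and 0.04 from the lowest to the highest. No member passed an adjusted p of 0.05 (the smallest was 0.367), and 24 members (12%) were higher and 11 (5.5%) lower at an unadjusted p under 0.05, against 7.28% and 5.88% of the genes tested that way. Of the 26 members that were higher in the counts as deposited, 12 were still higher at that limit, as were 4 of the 10 lower ones. The offsets take out any change that follows base composition or transcript length, whatever its source, and that source was not tested.

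**Figure D3:**
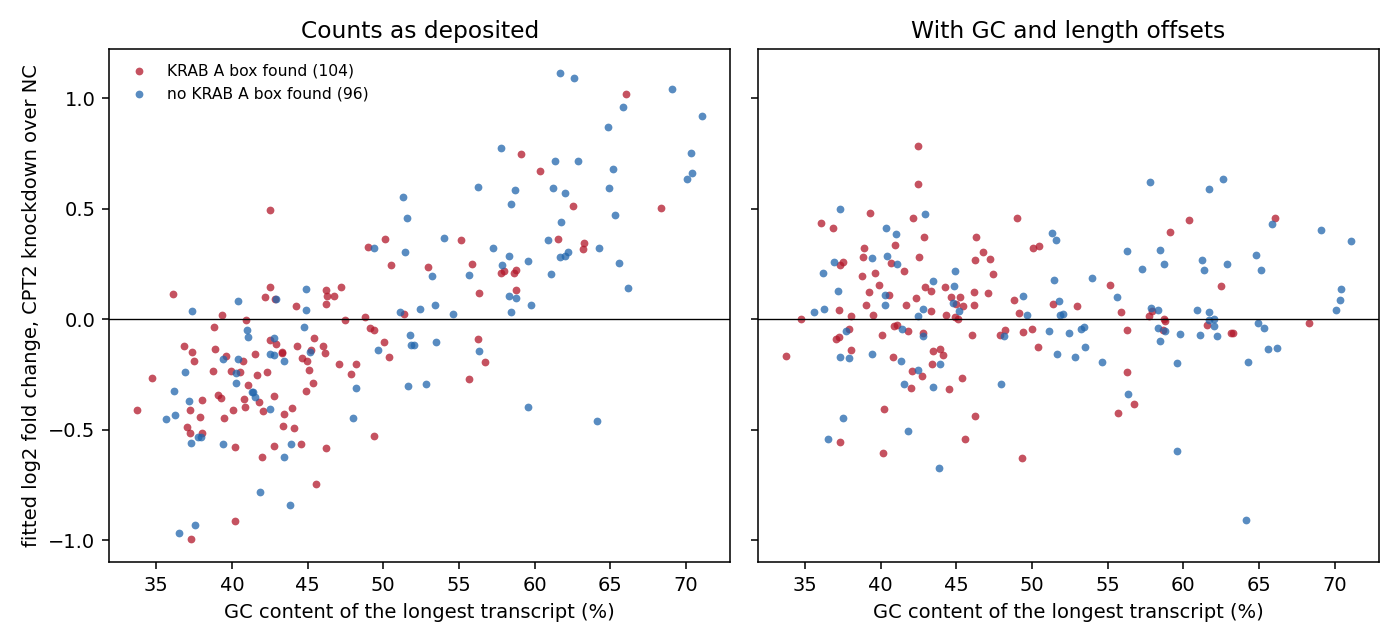
Fitted log2 fold change (CPT2 knockdown over NC, n = 3 each) of each of the 200 ZNF genes against the GC content of its longest transcript, for the counts as deposited (left) and with per-library GC and length offsets (right), coloured by whether a KRAB A box was found. The left panel climbs with GC content, with a Spearman correlation of 0.73, and the right panel is level, with 0.01.

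The members with and without a KRAB A box differed in the same way as their GC content. KRAB members had a median log2 fold change of -0.15 (5 higher and 6 lower at an unadjusted p under 0.05 among 104), and members without the box one of 0.04 (21 higher and 4 lower among 96), where 9.18% of all tested genes were higher and 5.29% lower. With the offsets both medians were 0.03. Within the classes of GC content, from the lowest to the highest, the medians were -0.30, -0.19, 0.21 and 0.50 for KRAB members and -0.45, -0.18, 0.10 and 0.59 for the others, so neither kind was the higher in every class.

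The members with the highest fold changes were GC-rich genes, most of them on chromosome 19 and without a KRAB A box. By the fixed rule (knockdown and NC values not overlapping, unadjusted p under 0.05), the 10 highest were ZNF580, ZNF414, ZNF358, ZNF205, ZNF579, ZNF865, ZNF444, ZNF787, ZNF688 and ZNF768, of which 7 lie on chromosome 19 and 3 on chromosome 16, and 2 (ZNF205 and ZNF688) hold a KRAB A box. Their GC content was 57.8 to 71.1%, and none passed an adjusted p of 0.05 in the edgeR fit by group alone.

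ZNF580 (chr19:55635016-55643469, plus strand) had 122, 50.6 and 57.5 CPM in the knockdown libraries and 37.7, 29.5 and 38.8 CPM in the NC libraries. Knockdown library 1 was more than the other knockdown libraries combined, and the other knockdown values were still above all NC values. The log2 fold change was 1.11 (SE 0.32), and 0.60 without knockdown library 1. Exons of ZNF580 overlap those of CCDC106 and ZNF581 on the same strand, and with the overlapping genes summed the value was 0.86.

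ZNF414 (chr19:8509678-8514164, minus strand) had 30.7, 19.1 and 14.3 CPM in the knockdown libraries and 9.33, 8.98 and 11.7 CPM in the NC libraries. All its knockdown values were above all its NC values, with a log2 fold change of 1.09 (SE 0.29), and 0.64 with the GC and length offsets. ZNF358 (chr19:7515292-7521026, plus strand), with 69.1% GC, had 48.5, 30.3 and 29.5 CPM in the knockdown libraries and 18.0, 15.1 and 19.5 CPM in the NC libraries. All knockdown values were above 29 CPM and all NC values below 20 CPM. Its log2 fold change was 1.04 (SE 0.23), with 0.76 without knockdown library 1 and 0.40 with the offsets. Of its 100-base stretches, 17.4% also occur in the overlapping gene AC008878.1, so its reads could be split between them.

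ZNF205 (chr16:3112560-3120517, plus strand) had 26.5, 14.6 and 17.8 CPM in the knockdown libraries and 11.8, 8.04 and 9.22 CPM in the NC libraries, a log2 fold change of 1.02 (SE 0.26). ZNF865, whose GC-rich finger is printed above, had 54.2, 26.8 and 31.6 CPM in the knockdown libraries and 19.7, 17.8 and 22.0 CPM in the NC libraries, a log2 fold change of 0.92 (SE 0.27). ZNF787 had 38.0, 20.3 and 27.0 CPM in the knockdown libraries and 17, 15.2 and 18.4 CPM in the NC libraries. Its log2 fold change was 0.75 (SE 0.24) as deposited and 0.09 with the offsets. The remaining 4, ZNF579, ZNF444, ZNF688 and ZNF768, had log2 fold changes of 0.96, 0.77, 0.75 and 0.72. ZNF444 encodes a SCAN-domain regulator and ZNF768 a protein that binds a family of repeat elements. Over the 10 genes, the values without knockdown library 1 ran from 0.40 to 0.76 and those with the offsets from 0.09 to 0.64. Knockdown library 1 was the highest of the 6 libraries in all 10, and NC library 2 was the lowest in 9 of the 10. The rule itself puts a knockdown library highest and an NC library lowest in each of these genes.

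Some of these genes are neighbours. Between chr19:55476332 and chr19:56160893, 9 members without a KRAB A box lie together (ZNF628, ZNF579, ZNF524, ZNF865, ZNF784, ZNF580, ZNF581, ZNF787 and ZNF444), a stretch noticed after the values were seen. Their log2 fold changes were 0.26 to 1.11 with a median of 0.77, at a GC content of 57.8 to 71.1%. Without knockdown library 1 they were 0.12 to 0.60. With the offsets they ran from -0.20 to 0.62, with a median of 0.29. By contrast the 47 KRAB members of chromosome 19 had a median of -0.19 at a median GC content of 42.5%, and one of 0.04 with the offsets.

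The members with the lowest fold changes were AT-rich. The rule gave only 8 genes, ZNF721, ZNF714, ZNF217, ZNF106, ZNF550, ZNF431, ZNF436 and ZNF283, with a GC content of 37.2 to 44.5%, and a KRAB A box was found in 5 of them. None passed an adjusted p of 0.05 in the edgeR fit by group alone. Knockdown library 1 was the lowest and NC library 2 the highest of the 6 libraries in all 8. The rule itself puts a knockdown library lowest and an NC library highest in each of these genes.

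ZNF721 (chr4:425815-499156, minus strand), a KRAB gene with 23 fingers, had 5.53, 7.39 and 11.3 CPM in the knockdown libraries and 14.4, 19.4 and 14.5 CPM in the NC libraries. The groups were separate, with a log2 fold change of -0.995 (SE 0.28), and -0.56 with the GC and length offsets. ZNF714 (chr19:21082159-21125270, plus strand) had 6.64, 11.5 and 8.30 CPM in the knockdown libraries and 16, 21.5 and 13.1 CPM in the NC libraries, a log2 fold change of -0.93 (SE 0.27). ZNF431, which lies close to it and whose AT-rich finger is printed above, had 23.9, 35.7 and 29.5 CPM in the knockdown libraries and 38.5, 49.9 and 39 CPM in the NC libraries. Its log2 fold change was -0.51 (SE 0.20) as deposited and 0.04 with the offsets.

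ZNF217 (chr20:53567065-53609907, minus strand), an oncogene amplified in breast and other carcinomas, had 20.8, 35 and 28.5 CPM in the knockdown libraries and 38.5, 48.4 and 42.8 CPM in the NC libraries. Every knockdown value was below every NC value, with a log2 fold change of -0.62 (SE 0.21). ZNF106, an RNA-binding protein, had 42.2, 51.2 and 48.0 CPM in the knockdown libraries and 64.7, 73.9 and 70.7 CPM in the NC libraries. Its SE was the smallest of the 8, with a log2 fold change of -0.57 (SE 0.15), -0.50 without knockdown library 1 and -0.20 with the offsets. ZNF550, ZNF436 and ZNF283 had log2 fold changes of -0.56, -0.48 and -0.45. Over the 8 genes the values without knockdown library 1 ran from -0.80 to -0.39, and those with the offsets from -0.56 to 0.04.

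A single GC-rich member went against the direction of its class, as did 143 of the 2094 tested genes of 60% GC or more. ZNF696, on chromosome 8 with 64.1% GC, was the only member of 60% GC or more with a negative log2 fold change, -0.46 (SE 0.29), and -0.91 with the offsets. It had 5.77, 4.25 and 2.74 CPM in the knockdown libraries and 5.03, 5.64 and 6.86 CPM in the NC libraries, which overlapped, and its lowest value was in knockdown library 3. This gene was singled out after its value was seen.

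**Figure D4:**
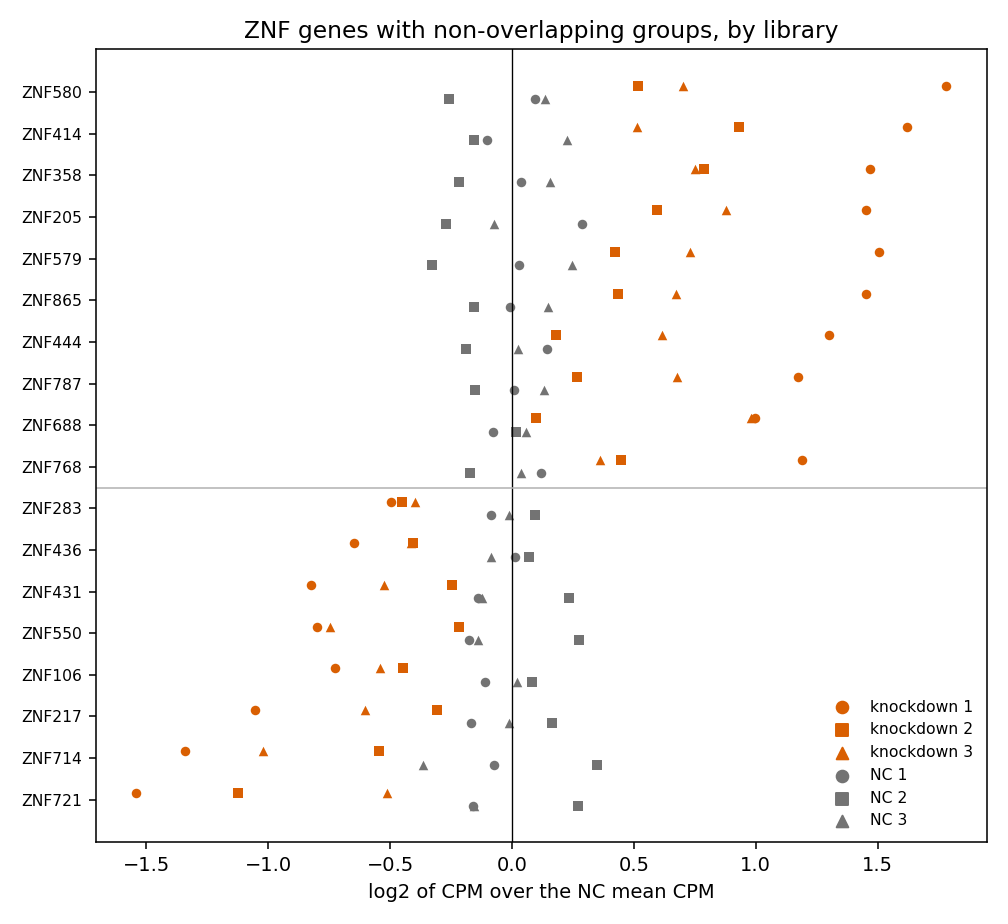
Log2 of the CPM of each library over the gene's NC mean CPM. The genes are the 10 ZNF genes with the highest and the 8 with the lowest fold change by the fixed rule. The CPT2 knockdown libraries are drawn beside the NC libraries. The rule chose genes whose 3 knockdown values do not overlap the 3 NC values, so a knockdown library is at the far end by construction. In every gene drawn this is knockdown library 1.

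The authors' deposited table, whose p-values come from DESeq2 and are unadjusted per the file headers, marked 12 members (6%) as up and 3 (1.5%) as down, against 2.77% and 1.38% of the 13635 genes with a value there. In the authors' deposited table the genes marked up were ZNF358, ZNF205, ZNF414, ZNF580, ZNF865, ZNF579, ZNF787, ZNF703, ZNF48, ZNF768, ZNF628 and ZNF444, and those marked down were ZNF721, ZNF714 and ZNF217.

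The counts of each list of roles below stand against 9.18% of all tested genes that were higher and 5.29% that were lower at an unadjusted p under 0.05. Members that work on RNA or the ribosome were followed as a list of 11. Of these, none was higher and 1 (ZNF106) was lower at an unadjusted p under 0.05, with a median log2 fold change of -0.16. ZNF622 had a log2 fold change of 0.19 (SE 0.15). ZNF598 had 93.0, 76.8 and 88.4 CPM in the knockdown libraries and 70.2, 67.4 and 78.8 CPM in the NC libraries, a log2 fold change of 0.26 (SE 0.15). ZNF593, whose yeast relative escorts the large ribosomal subunit out of the nucleus, had the highest value of the list at 0.57 (SE 0.27), and -0.03 with the offsets. Its 25.3, 12.2 and 19.2 CPM in the knockdown libraries overlapped its 13.2, 10.6 and 14.4 CPM in the NC libraries. ZNF346, which binds double-stranded RNA, stood at 0.05 and ZNF706 at 0.08. ZNF638 (-0.18), ZNF207 (-0.24), ZNF326 (-0.33), a subunit of the DBIRD complex that couples elongation to splicing, ZNF330 (-0.35) and ZNF277 (-0.16) were negative and had overlapping groups.

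Of the 13 members listed as factors of transcription or chromatin architecture, 1 (ZNF703) was higher and 1 (ZNF217) lower at an unadjusted p under 0.05, with a median log2 fold change of -0.11. ZNF703, a cofactor amplified in luminal breast cancer, had 32.4, 20.3 and 21.9 CPM in the knockdown libraries and 16, 13.5 and 17.2 CPM in the NC libraries, a log2 fold change of 0.68 (SE 0.22). ZNF143, which binds promoters at chromatin loop anchors, had 11.5, 21.9 and 17.1 CPM in the knockdown libraries and 16.4, 20.5 and 19.6 CPM in the NC libraries, which overlapped. Its log2 fold change was -0.16 (SE 0.25), and 0.04 without knockdown library 1. Its paralogue ZNF76 stood at 0.20 (SE 0.16). ZNF410, an activator of the CHD4 gene, stood at -0.03 (SE 0.17), but 81.2% of its 100-base stretches also occur in the overlapping gene AC005520.1, so its count is uncertain. ZNF281 had the lowest value of the list, -0.78 (SE 0.42), from 5.53, 20.8 and 14.8 CPM in the knockdown libraries and 18.4, 30.3 and 22.2 CPM in the NC libraries. The groups overlapped, the lowest value was in knockdown library 1, and the log2 fold change without it was -0.42. ZNF131 (-0.41), ZNF148 (-0.45), ZNF24 (-0.37) and ZNF384 (0.06) had overlapping groups.

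ZNF592 and ZNF687, which form a complex with the histone reader ZMYND8, had log2 fold changes of -0.12 (SE 0.16) and 0.11 (SE 0.15). ZNF451, a SUMO ligase, had 18.7, 36.7 and 35.9 CPM in the knockdown libraries and 38.8, 53.3 and 40.1 CPM in the NC libraries. The groups did not overlap, and the log2 fold change was -0.53 (SE 0.27), and -0.05 with the offsets. SCAN domains pair zinc finger proteins with one another. Of the 14 SCAN members, 2 (ZNF444 and ZNF213) were higher and none lower at an unadjusted p under 0.05, within a range of -0.37 in ZNF24 to 0.77 in ZNF444 and a median of 0.11. ZNF213 had 30.3, 17.3 and 15.1 CPM in the knockdown libraries and 14.6, 11.3 and 13.5 CPM in the NC libraries, a log2 fold change of 0.67 (SE 0.28), and 0.29 without knockdown library 1.

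KRAB repressors with a described genomic target were a list of 7. Of these, none was higher or lower at an unadjusted p under 0.05, and the median log2 fold change was -0.17. ZNF274, which brings SETDB1 to the 3′ ends of other ZNF genes, had 15.9, 22.7 and 17.8 CPM in the knockdown libraries and 19.7, 19.2 and 16.7 CPM in the NC libraries, a log2 fold change of 0.02 (SE 0.19). ZNF445, a factor of imprinted regions, had 39.4, 34.4 and 33.2 CPM in the knockdown libraries and 39.4, 42.1 and 41.4 CPM in the NC libraries, a log2 fold change of -0.20 (SE 0.15). ZNF91, which silences SVA elements and has the most fingers of all members (31), had 5.30, 15.7 and 9.40 CPM in the knockdown libraries and 12.3, 18.5 and 11.8 CPM in the NC libraries. Its groups overlapped, with a log2 fold change of -0.49 (SE 0.37), and -0.19 without knockdown library 1. ZNF10 (-0.23), ZNF331 (-0.15), ZNF317 (-0.17) and ZNF202 (-0.10) overlapped as well.

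The partners through which KRAB proteins silence were listed apart from the members. Of 20, 1 was higher (EHMT2) and none lower at an unadjusted p under 0.05, none passed an adjusted p of 0.05, and the median log2 fold change was -0.12. TRIM28, the corepressor that binds the KRAB domain, had 624, 434 and 554 CPM in the knockdown libraries and 466, 377 and 419 CPM in the NC libraries. The groups overlapped, with a log2 fold change of 0.35 (SE 0.17), and -0.07 with the offsets. SETDB1 had 60.1, 50.6 and 53.8 CPM in the knockdown libraries and 56.3, 56.2 and 51.3 CPM in the NC libraries, a log2 fold change of 0.01 (SE 0.15). EHMT2, a second histone methyltransferase, had 218, 115 and 136 CPM in the knockdown libraries and 111, 95.2 and 99.8 CPM in the NC libraries, which did not overlap, a log2 fold change of 0.62 (SE 0.23), and 0.29 without knockdown library 1.

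The 166 tested ZNF genes of the same naming rule that fell below the FPKM limit had a median log2 fold change of -0.20, with 2 higher and 9 lower at an unadjusted p under 0.05, against 9.18% and 5.29% of all tested genes, and a median GC content of 42.5%. With the offsets their median was 0.00. Of the 200 members, 35 have exons that overlap another gene on the same strand and 34 on the opposite strand. Whether reads were counted by strand is not stated in the sources used here, so the counts of these genes are uncertain. In 17 members over 10% of the 100-base stretches occur in another gene, and in 149 none do.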

How the data were processed

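RNA was read by poly(A) RNA-seq in 6 libraries of HCT116 cells. The authors deposited raw whole-number counts per gene and library, and FPKM beside them, per the file headers. HISAT2, TopHat2, Bowtie2, StringTie, DESeq2, edgeR and GRCh38 are named without roles in the submitters' processing notes. From the table, 17 stray lines were left out. All 19974 Ensembl IDs matched GENCODE 29, which gave coordinates, GC content and length of the longest transcript.

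Counts were tested with edgeR 4.0.16 (filterByExpr, trimmed-mean scaling, robust quasi-likelihood fit, Benjamini-Hochberg adjustment over all tested genes) in R 4.3.3. limma 3.58.1 and DESeq2 1.42.0 were alternatives. GC and length offsets came from a loess per library (span 0.3). KRAB A boxes were scored on translated coding sequences with a profile of 39 residues built from 203 sequences (score of at least 0 bits), and fingers were found by their cysteine and histidine spacing. Overlap was counted between annotated exons, and sequence sharing over stretches of 100 bases. The tests were tried on simulated data.

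The members and lists were chosen with earlier results of these data known. Genes were named by level (the 10 highest and the 3 on either side of the limit), by fold change (up to 10 in each direction with groups that do not overlap, an unadjusted p under 0.05 and 2 CPM or more on average) and by lists of known roles. The rule also allowed genes past an adjusted p of 0.05 and genes whose FPKM and CPM folds differ by over 1 (log2), and it gave none of either kind. A gene of the list of KRAB partners is not reported here.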

Additional observations from a re-analysis of the deposited data

How the results depend on the processing

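Leaving out each library in turn, the count of members past an adjusted p of 0.05 stayed at 0, the higher members numbered 8 to 39, the lower members 3 to 47, and the median log2 fold change ran from -0.14 to -0.02. DESeq2 gave 1 called and 17 lower members (0.111% and 8.01% of all tested genes), and no filter on low counts gave 16 lower (6.17%). All tested ZNF genes gave 19 lower, which were 10 of the 200 members and 9 of the 166 others. That larger set stands against 5.29% of all tested genes. Scaling by library size alone gave 14 higher and 18 lower members (3.8% and 9.4% of all tested genes) and a median of -0.23. limma on log2(FPKM + 1) gave 10 higher members (4.57%), and on log2(FPKM + 0.1) 11 higher members (4.42%) and a median of -0.22. The added constant shrinks the fold changes of low genes, but these scales also lack the trimmed-mean scaling. Not every value was smaller on them. ZNF283 stood at -0.45 in the main fit and at -0.56 on log2(FPKM + 0.1), while ZNF721 stood at -0.995 and -0.83. All tested genes had medians of -0.07 on log2(FPKM + 1) and -0.12 on log2(FPKM + 0.1). The GC and length offsets turned the median to 0.033, and to 0.011 without CPT2 knockdown library 1, where 13 members were higher (4.17% of the genes tested). The causes of these shifts were not tested, apart from the offsets, which take out the GC and length trends by construction.

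Same-numbered libraries of the groups had correlated deviations of 0.25, 0.36 and 0.0065 over genes, against -0.32 to 0.091 for unlike-numbered ones. The labels state no pairing, and the main fit took the libraries as unpaired, a choice that these values do not settle. With the replicate number as a block, 14 members were called, against 4.14% of all tested genes (633), with 37 lower members, against 16%. With the block and the offsets together, 10 were called and 18 were lower, against 4.97% and 11.4% of the genes tested, and the median was 0.027. Under both, the log2 fold change changed sign in ZNF622 (-0.047), ZNF638 (0.27), ZNF207 (0.26), ZNF384 (-0.046), ZNF598 (-0.15), ZNF431 (0.029), ZNF593 (-0.034), ZNF346 (-0.064), ZNF326 (0.20), ZNF143 (0.0072), ZNF410 (0.076), ZNF148 (0.026), ZNF24 (0.12), ZNF592 (0.0096), ZNF687 (-0.039), ZNF445 (0.098), ZNF10 (0.25), ZNF331 (0.052) and TRIM28 (-0.072).

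Of the 1120 values for 56 named genes over 20 alternatives, 1021 kept their direction and side of the threshold, 17 passed it only in the alternative and 82 changed sign. With the offsets alone the sign changed in ZNF622 (-0.045), ZNF638 (0.28), ZNF207 (0.26), ZNF384 (-0.036), ZNF598 (-0.14), ZNF431 (0.041), ZNF283 (0.020), ZNF593 (-0.032), ZNF346 (-0.065), ZNF326 (0.21), ZNF143 (0.012), ZNF410 (0.075), ZNF148 (0.030), ZNF24 (0.13), ZNF592 (0.019), ZNF687 (-0.041), ZNF445 (0.12), ZNF10 (0.19), ZNF331 (0.062), TRIM28 (-0.072) and CPT2 (0.019). With the offsets and without knockdown library 1 it changed in ZNF638 (0.11), ZNF207 (0.27), ZNF598 (-0.015), ZNF593 (-0.080), ZNF346 (-0.057), ZNF326 (0.086), ZNF143 (0.091), ZNF148 (0.083), ZNF24 (0.016), ZNF687 (-0.027), ZNF91 (0.013), ZNF10 (0.067), ZNF331 (0.093), TRIM28 (-0.020) and SETDB1 (-0.035). By library size alone it changed in ZNF384 (-0.073), ZNF346 (-0.092), ZNF706 (-0.053), ZNF687 (-0.041), ZNF274 (-0.11) and SETDB1 (-0.14). On log2(FPKM + 1) it changed in ZNF384 (-0.16), ZNF346 (-0.084), ZNF687 (-0.044), ZNF274 (-0.11) and SETDB1 (-0.14), and on log2(FPKM + 0.1) in ZNF384 (-0.17), ZNF346 (-0.091), ZNF687 (-0.046), ZNF274 (-0.12) and SETDB1 (-0.15). With overlapping genes summed ZNF410 stood at 0.0039, and with no filter SETDB1 at -0.0048. Without one library each, the values spanned zero in ZNF384 (-0.061 to 0.14), ZNF143 (-0.40 to 0.043), ZNF410 (-0.13 to 0.066), ZNF274 (-0.14 to 0.12), ZNF202 (-0.22 to 0.046) and SETDB1 (-0.074 to 0.058). At totals of 28353790 to 29449380 counts and 3 libraries a group, the members' SE ran from 0.14 to 0.97 (log2), and no limit of detection was tested.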
